A study of Oryza sativa Japonica Group with 6 samples.

Results

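The genes described here make, break down or respond to abscisic acid (ABA), the plant hormone of drought, salt and seed dormancy. They are 10 genes of the 31010 listed in a table of root tip RNA-seq, taken by their locus identifiers. The choice was made with earlier results of these data known. The set holds NCED3, NCED4 and NCED5, ZEP1, ABA8ox1, ABA8ox2 and ABA8ox3, bZIP23, RAB16A and LEA3. The RNA was from rice (Oryza sativa Japonica Group), taken from the root tips of 7-day plants. plt345 is labelled a triple mutant of the PLETHORA genes PLT3, PLT4 and PLT5, which encode transcription factors of the root meristem, and the kind of each mutation is not stated. The wild type carries the name ZH11 in the sample titles. Each genotype had 3 libraries, grown without treatment on Murashige and Skoog medium in light and dark cycles. Whether the 3 libraries of a genotype represent separately grown plants is not stated in the labels. The p-values therefore measure only how far these libraries spread, which may be technical.

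ABA is made from carotenoids. Zeaxanthin epoxidase, encoded by ZEP genes, forms the epoxy carotenoids that 9-cis-epoxycarotenoid dioxygenases, encoded by NCED genes, then cleave, which is usually the limiting step. ABA 8'-hydroxylases, cytochrome P450 enzymes encoded by ABA8ox genes, inactivate the hormone. When ABA binds its PYL receptors, PP2C phosphatases are held back, SnRK2 kinases become active, and bZIP factors such as bZIP23 switch on protective genes, among them the dehydrin RAB16A and the late embryogenesis abundant protein LEA3. Many PP2C, NCED and ABA8ox genes are themselves ABA responsive. In roots the hormone can hold back growth of the meristem.

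Values are normalized counts, the reads of a gene divided by a size factor of the library, and are not scaled by gene length, so levels of different genes are not compared. Libraries held 20759896 to 21309371 reads on genes. A gene was tested where its mean over the 6 libraries reached 10 normalized counts, which 23166 genes did, with limma on log2(value + 1). Genes passed at an adjusted p under 0.05 (Benjamini-Hochberg, over all tested genes). A positive log2 fold change means higher in plt345. Transcripts of the mutated genes were present in both genotypes. Those of PLT3 lay at 555.8 to 595.2 in plt345 and 572.8 to 583.7 in wild type, those of PLT4 at 218.2 to 244.2 in plt345 and 248.5 to 287.8 in wild type, and those of PLT5 at 1259 to 1277 in plt345 and 512.6 to 564.4 in wild type. The loci of these 3 genes rest on nomenclature, and transcript levels cannot check a genotype whose kind of mutation is unknown. In bulk root tips fewer cells of a type and less RNA per cell cannot be told apart.

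Of the 10 genes, 8 passed the filter on low values and all 8 rose in plt345, with no plt345 library at or below a wild type library in any of them. Among all tested genes 68.0% passed the threshold, 34.0% as higher and 34.0% as lower, and 35.6% had every plt345 library above every wild type library, as 35.5% had every one below. Library totals in place of size factors made 60.9% of all calls higher, against 50.1%. NCED5 and RAB16A reached the filter only through their plt345 levels, so the count over tested genes is a description. With no filter, 8 of the 10 passed as higher and none as lower, where 29.7% of the 31010 genes passed as higher and 25.7% as lower. The median log2 fold change of the 10 was then 0.83, beside 0.03 over all genes. Since the 10 were chosen with earlier results known, these comparisons with all genes are a description. The changes were of very unequal size, from 1.09-fold for ABA8ox1 to 10.6-fold for ABA8ox2, and 4 of the 8 were at least 2-fold higher, as were 13.8% of all tested genes. None was 2-fold lower, as were 2.97% of all tested genes.

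**Figure D1:**
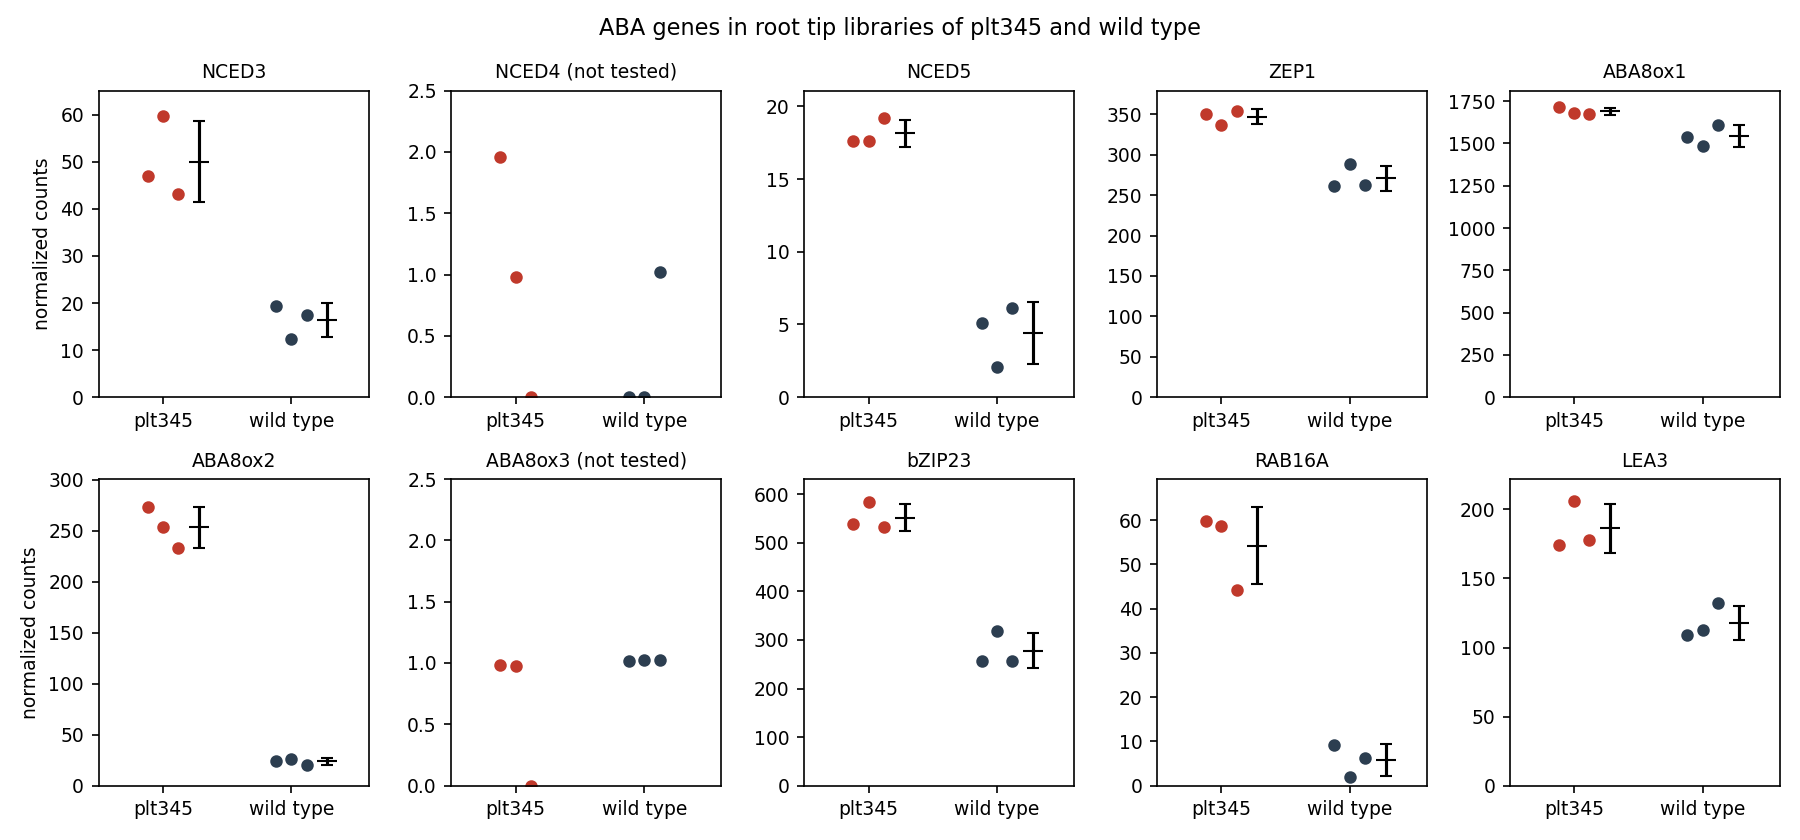
Normalized counts of the 10 ABA genes in each library, with 3 plt345 libraries at the left and 3 wild type libraries at the right of each panel, and the mean and SD beside the points of the tested genes. The plt345 points lie above the wild type points in all 8 tested genes, widest apart in ABA8ox2 and RAB16A, and NCED4 and ABA8ox3 hold at most 2 reads per library.

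Among the synthesis genes, NCED3 (LOC_Os03g44380), a dioxygenase gene induced by drought, was at 47.1, 59.7 and 43.3 normalized counts in the plt345 libraries and at 19.3, 12.3 and 17.4 in the wild type libraries. The lowest plt345 library was above the highest wild type library by a wide margin. The mean was 50.01 ± 8.59 in plt345 and 16.3 ± 3.64 in wild type (SD, n = 3 libraries each), 3.06-fold higher, a log2 fold change of 1.57 ± 0.23 (SE; adjusted p = 1.6e-06 in limma). NCED5 (LOC_Os12g42280), another dioxygenase gene of the family, was low in both genotypes, at 17.65, 17.61 and 19.2 normalized counts in plt345 and 5.085, 2.05 and 6.14 in wild type. These are 18, 18 and 20 reads in plt345 and 5, 2 and 6 reads in wild type. Its ratio of means was 4.11, and its log2 fold change 1.91 ± 0.38 (SE; adjusted p = 7.87e-05 in limma). NCED5 reached the filter only through its plt345 level, so its call is a description. With no filter its adjusted p was 0.000834 in limma. NCED4 (LOC_Os07g05940) was hardly detected, with 2, 1 and 0 reads in the plt345 libraries and 0, 0 and 1 in the wild type libraries. At this depth no difference in NCED4 could be seen, and with no filter its adjusted p was 0.43 in limma.

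ZEP1 (LOC_Os04g37619), the epoxidase gene upstream of the dioxygenases, changed less. It was at 351, 336.6 and 353.9 normalized counts in plt345 and 261.4, 288.4 and 262.9 in wild type. The groups did not overlap, and the difference was 1.28-fold, a log2 fold change of 0.36 ± 0.07 (SE; adjusted p = 8.96e-05 in limma). Within the synthesis branch the dioxygenase genes NCED3 and NCED5 thus had larger fold changes than ZEP1, though the difference between genes was not tested.

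Of the 3 hydroxylase genes, 1 rose about as strongly as RAB16A, 1 rose slightly and 1 was hardly detected. ABA8ox2 (LOC_Os08g36860) was at 273.6, 253.4 and 232.7 normalized counts in plt345 and 24.4, 26.6 and 20.5 in wild type. Its lowest plt345 library held 242 reads and its highest wild type library 26. The mean was 253.2 ± 20.4 in plt345 and 23.8 ± 3.11 in wild type (SD, n = 3 libraries each), 10.6-fold higher, with a log2 fold change of 3.36 ± 0.14 (SE; adjusted p = 9.04e-17 in limma). Only 2.57% of all tested genes had a larger log2 fold change. ABA8ox1 (LOC_Os02g47470) was at 1715, 1680 and 1676 normalized counts in plt345 and 1538, 1485 and 1612 in wild type. This was a 1.09-fold difference, a log2 fold change of 0.13 ± 0.04 (SE; adjusted p = 0.0048 in limma). The groups did not overlap, but the gap between them was smaller than the range of the wild type libraries, and with library totals the log2 fold change was 0.22. ABA8ox3 (LOC_Os09g28390) had 1, 1 and 0 reads in plt345 and 1 read in each wild type library, too few for a comparison (with no filter, limma adjusted p = 0.506).

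Ratios of reads within a library do not depend on how libraries are scaled. For every 100 reads of ABA8ox1 there were 16.0, 15.1 and 13.9 reads of ABA8ox2 in the plt345 libraries, against 1.59, 1.79 and 1.27 in the wild type libraries, a 9.67-fold higher ratio in plt345. For every 100 reads of ABA8ox2 there were 17.2, 23.6 and 18.6 reads of NCED3 in plt345, against 79.2, 46.2 and 85.0 in wild type, so that the ratio of this synthesis gene to this breakdown gene was 3.54-fold lower in plt345. Set against ABA8ox1 instead, NCED3 had 2.74, 3.55 and 2.58 reads per 100 in plt345 and 1.26, 0.826 and 1.08 in wild type, 2.81-fold higher in plt345. The direction of a synthesis to breakdown ratio therefore depended on which hydroxylase gene was taken. In these 3 ratios the genotypes did not overlap, and 3 libraries against 3 give an exact two-sided permutation p of 0.1, the smallest possible (0.125 after Benjamini-Hochberg adjustment over 5 ratios).

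**Figure D2:**
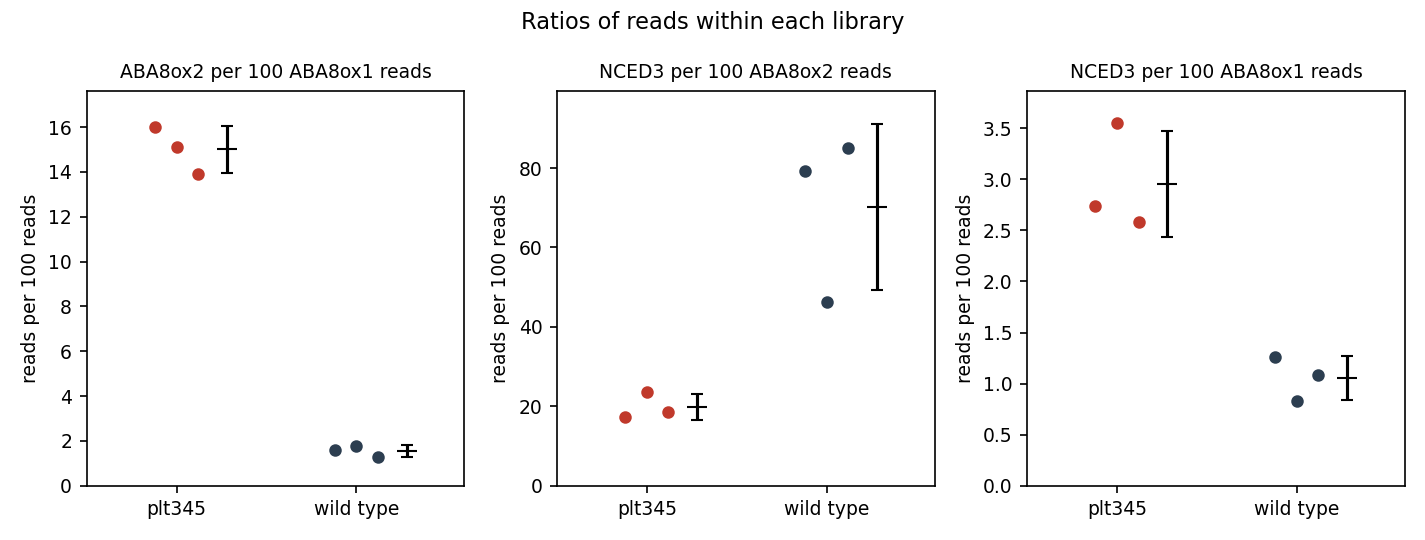
Reads of 1 gene per 100 reads of another within each library, with plt345 at the left and wild type at the right of each panel, points for libraries and bars for mean and SD. ABA8ox2 per ABA8ox1 and NCED3 per ABA8ox1 are higher in all 3 plt345 libraries, and NCED3 per ABA8ox2 is lower in all 3.

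On the response side, bZIP23 (LOC_Os02g52780), which encodes a bZIP factor that binds ABA response elements, was at 539.3, 584.1 and 531.7 normalized counts in plt345 and 257.3, 319.1 and 255.8 in wild type. Every plt345 library was far above the wild type libraries. The ratio of means was 1.99, just under 2-fold, with a log2 fold change of 0.996 ± 0.08 (SE; adjusted p = 1.41e-11 in limma). LEA3 (LOC_Os05g46480), a late embryogenesis abundant protein gene induced by ABA and drought, was at 174.5, 206.4 and 177.9 in plt345 and 108.8, 112.5 and 132.0 in wild type. It was 1.58-fold higher, with a log2 fold change of 0.66 ± 0.11 (SE; adjusted p = 7.52e-06 in limma).

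RAB16A (LOC_Os11g26790), a dehydrin gene whose name stands for responsive to ABA, was at 59.8, 58.7 and 44.2 normalized counts in plt345 and at 9.15, 2.05 and 6.14 in wild type. These are 61, 60 and 46 reads in plt345 and only 9, 2 and 6 reads in wild type, with a wide gap between the groups. The mean was 54.25 ± 8.69 in plt345 and 5.78 ± 3.57 in wild type (SD, n = 3 libraries each), 9.39-fold higher, with a log2 fold change of 3.18 ± 0.34 (SE; adjusted p = 7.87e-09 in limma). RAB16A reached the filter only through its plt345 level, so its call is a description. With no filter its adjusted p was 3.61e-05 in limma. The size of the change rests on few wild type reads. A pseudocount of 5 gave a log2 fold change of 2.505, and it was 2.685 without wild type replicate 2, the library with 2 reads.

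**Figure D3:**
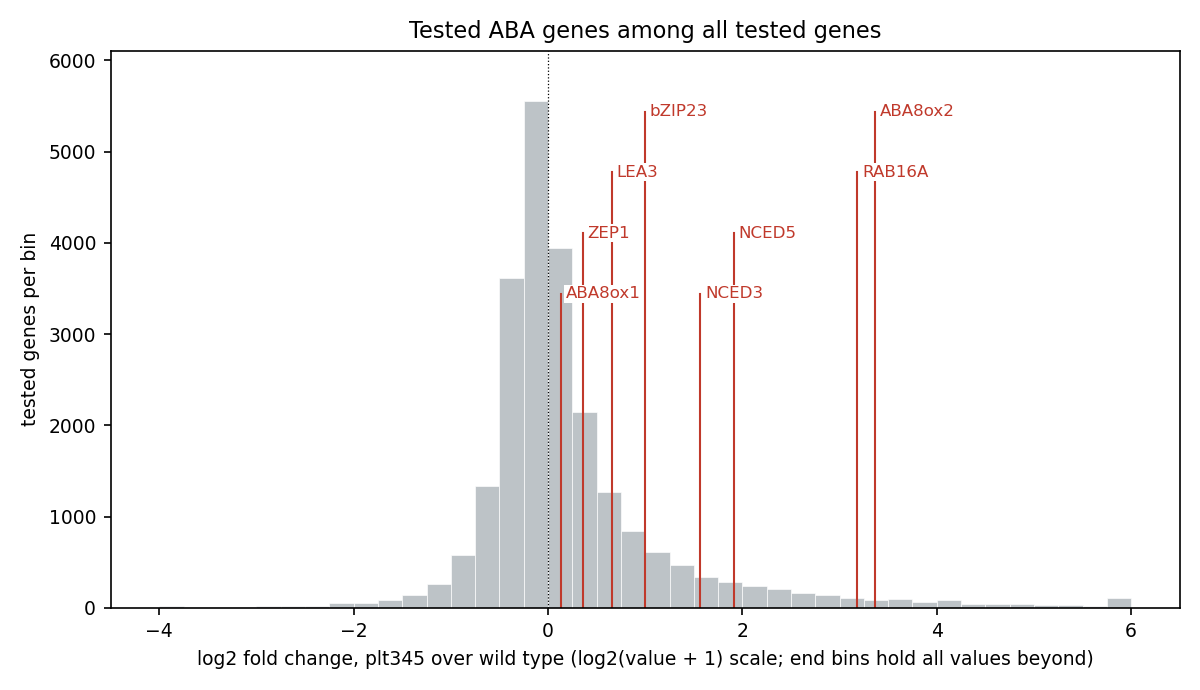
Number of tested genes per bin of log2 fold change, plt345 over wild type, for 23166 genes in grey, with the 8 tested ABA genes as red lines whose heights carry no meaning. All 8 lines lie right of 0, from 0.13 for ABA8ox1 to 3.36 for ABA8ox2, while the median of all tested genes is -0.01.

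RAB16A lies in a row of 4 dehydrin genes with RAB16B, RAB16C and RAB16D, which the reference annotation lists with no other protein-coding gene between them. RAB16D (LOC_Os11g26750) was at 96.1, 92.0 and 99.0 normalized counts in plt345 and 24.4, 27.6 and 22.5 in wild type, a log2 fold change of 1.91 ± 0.17 (SE; adjusted p = 2.7e-10 in limma). RAB16C (LOC_Os11g26760) was at 21.6, 28.4 and 19.2 in plt345 and 3.05, 4.09 and 6.14 in wild type, with a log2 fold change of 2.17 ± 0.34 (SE; adjusted p = 4.66e-06 in limma) that was 1.57 at a pseudocount of 5. It too reached the filter only through its plt345 level, so its call is a description. RAB16B (LOC_Os11g26780) was too low for the test and was named after its values were seen. It had 16, 20 and 17 reads in plt345 and 0 in each wild type library, which is at least 16.8-fold higher when 3 reads are allowed to the wild type libraries together. All 4 genes were thus higher in every plt345 library than in any wild type library, as were 35.6% of all tested genes. Of the 4, only RAB16D was tested without relying on its plt345 level, so this count is a description. They are similar in sequence, and how the authors treated reads that match several genes is not given in the sources used here, so their separate values are uncertain.

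**Figure D4:**
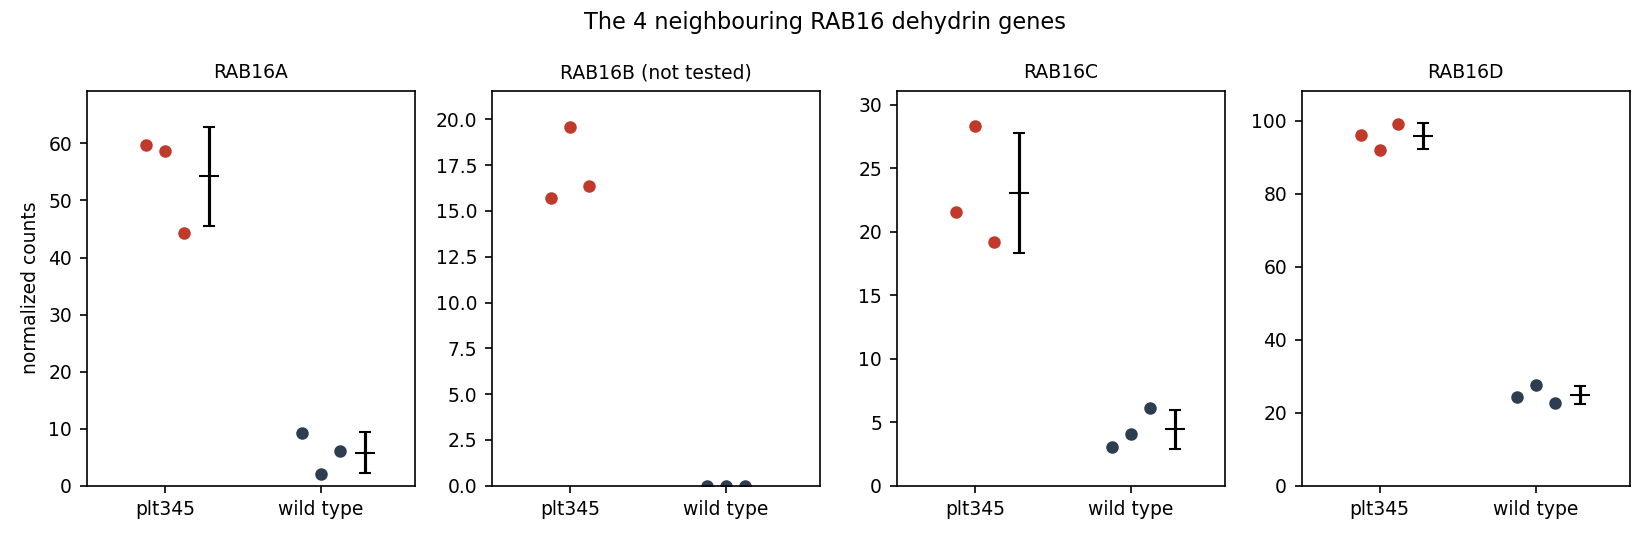
Normalized counts of the 4 neighbouring RAB16 dehydrin genes in each library, plt345 at the left and wild type at the right of each panel, with mean and SD beside the points of the tested genes. In each gene the lowest plt345 library is above the highest wild type library, and RAB16B has no read in wild type.

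The rest of the pathway was read from lists of 64 further genes. They were entered by locus identifier, and 37 were placed by a reference table, in that a gene of the same symbol lies where the identifier would put it. Another 2 were contradicted by that table and left out. Of the remaining 62, 51 were tested, and 36 were higher, 6 lower and 9 not past the threshold, where 34.0% of all tested genes were higher and 34.0% lower. The median log2 fold change was 0.53 beside -0.01 for all tested genes. Both genes left out were lower in plt345, and with them 36 of 53 tested were higher and 8 lower, with a median of 0.45. Of the 51, 3 reached the filter only through plt345, and the lists were chosen with earlier results known, so these counts too are a description. With no filter, 41 of the 58 in the table were higher, 7 lower and 10 not past the threshold, beside 29.7% higher and 25.7% lower among all 31010 genes. The counts of the single lists below stand against the same 34.0% higher and 34.0% lower, and 1 receptor locus, 1 transcription factor locus and RAB16C are the 3 tested only through plt345. Among the 32 tested genes that were placed, 22 were higher, 4 lower and 6 not past the threshold. Names are given only for placed genes.

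In the carotenoid pathway, which supplies the precursor, 8 of 10 tested genes were higher and none lower (34.0% and 34.0% over all tested genes), and of the 4 placed ones 3 were higher. Among the 8, LOC_Os12g44310 was entered as a carotenoid cleavage dioxygenase gene, which does not supply the precursor. PSY3 (LOC_Os09g38320), which encodes a phytoene synthase, the first enzyme of the pathway, was at 91.2, 99.8 and 107.7 normalized counts in plt345 and 18.3, 11.25 and 13.3 in wild type. This was 6.97-fold higher, with a log2 fold change of 2.74 ± 0.20 (SE; adjusted p = 8.69e-12 in limma). Its relatives had smaller differences, though the difference between genes was not tested. PSY2, named after its value was seen, was 1.11-fold higher (limma adjusted p = 0.00828, and 0.0545 in the authors' deposited table), and PSY1, likewise named afterwards, had a log2 fold change of -0.20 and did not pass (limma adjusted p = 0.187). PDS, the phytoene desaturase gene, rose 1.47-fold. Of 2 other synthesis genes tested 1 was higher and 1 lower. The placed one, MCSU3, which encodes a sulfurase of the molybdenum cofactor that the last enzyme of ABA synthesis needs, rose 1.13-fold. LOC_Os02g47510, entered as an NCED gene and named after its values were seen, was too low for the test. It had 17, 22 and 16 reads in plt345 and 0, 0 and 1 in wild type.

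Receptor genes were entered as 9 loci, of which the reference table placed 1. PYL11 (LOC_Os05g12260), that receptor gene, rose 1.16-fold, with a log2 fold change of 0.22 ± 0.05 (SE; adjusted p = 0.000288 in limma). Of the 6 tested loci that were not contradicted, 4 were higher, 1 lower and 1 not past the threshold. The contradicted receptor locus, LOC_Os05g39580, named after its value was seen, had a log2 fold change of -1.26 (limma adjusted p = 1.17e-07). Among the clade A PP2C phosphatase genes, the repressors of the pathway, 6 of 8 tested were higher and none lower (34.0% and 34.0% over all tested genes). PP2C68 (LOC_Os09g15670) was at 87.3, 64.6 and 72.1 normalized counts in plt345 and 23.4, 27.6 and 27.6 in wild type, with a log2 fold change of 1.47 ± 0.18 (SE; adjusted p = 1.17e-07 in limma). PP2C30 (LOC_Os03g16170) was at 63.7, 64.6 and 79.8 in plt345 and 34.6, 18.4 and 25.6 in wild type, with a log2 fold change of 1.41 ± 0.21 (SE; adjusted p = 1.79e-06 in limma). PP2C08, PP2C09 and PP2C50 rose by 0.74, 0.54 and 0.53 on the log2 scale. The 2 that did not pass, PP2C06 and PP2C53, were abundant, and their names were chosen after their values were seen. They were at 1083 ± 44.0 and 869.0 ± 18.5 in plt345 and 1089 ± 28.3 and 868.2 ± 38.8 in wild type (SD, n = 3 libraries each).

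The SnRK2 kinase genes, SAPK1 to SAPK10 in rice, moved both ways. All 10 were tested and placed, and 7 were higher, 2 lower and 1 not past the threshold (34.0% higher and 34.0% lower over all tested genes). SAPK6 (LOC_Os02g34600) had the largest rise of these kinases, at 242.2, 259.3 and 260.6 normalized counts in plt345 and 67.1, 48.1 and 68.55 in wild type (log2 fold change 2.05, SE 0.13, limma adjusted p = 1.85e-13). SAPK1 and SAPK3 rose 2.79-fold and 2.32-fold, and SAPK9, of the subclass activated most strongly by ABA, rose 1.93-fold. The other members of that subclass, SAPK8 and SAPK10, named after their values were seen, rose 1.09-fold and 1.47-fold. SAPK7 (LOC_Os04g35240) fell to 1181, 1177 and 1243 in plt345, against 1595, 1669 and 1706 in wild type, by 0.46 on the log2 scale (SE 0.04, limma adjusted p = 2.02e-10), and SAPK5 fell by 0.25. SAPK4, named after its value was seen, had overlapping groups and a log2 fold change of -0.06 (limma adjusted p = 0.515).

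Further response genes differed in direction. Of 9 tested genes 6 were higher, 2 lower and 1 not past the threshold (34.0% higher and 34.0% lower over all tested genes). SALT (LOC_Os01g24710), a lectin gene induced by salt and drought, was at 946.2, 1009 and 943.3 normalized counts in plt345 and 57.0, 62.4 and 53.2 in wild type. The rise was 16.8-fold, a log2 fold change of 4.05 ± 0.08 (SE; adjusted p = 1.95e-23 in limma). SNAC2 (LOC_Os01g66120), a stress-induced NAC transcription factor gene, rose 1.75-fold. P5CS, a proline synthesis gene, and DHN1, a dehydrin gene named after its value was seen, were 0.898-fold and 0.9-fold of wild type. Both calls were lost with library totals (limma adjusted p = 0.134 and 0.259), and that of DHN1 also without plt345 replicate 3 (0.0621) or wild type replicate 1 (0.0914). DREB2A, also named afterwards, had a log2 fold change of 0.18 and did not pass (limma adjusted p = 0.0515), but did with library totals (0.00567), with no filter (0.0403) and with the median of all genes subtracted (0.0415). Among the other bZIP and VP1-type factors 4 of 6 tested were higher and none lower (34.0% and 34.0% over all tested genes). The placed one that was tested, TRAB1, had a log2 fold change of 0.11 (limma adjusted p = 0.126), and passed with library totals (0.00785) and without plt345 replicate 3 (0.0495).

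**Figure D5:**
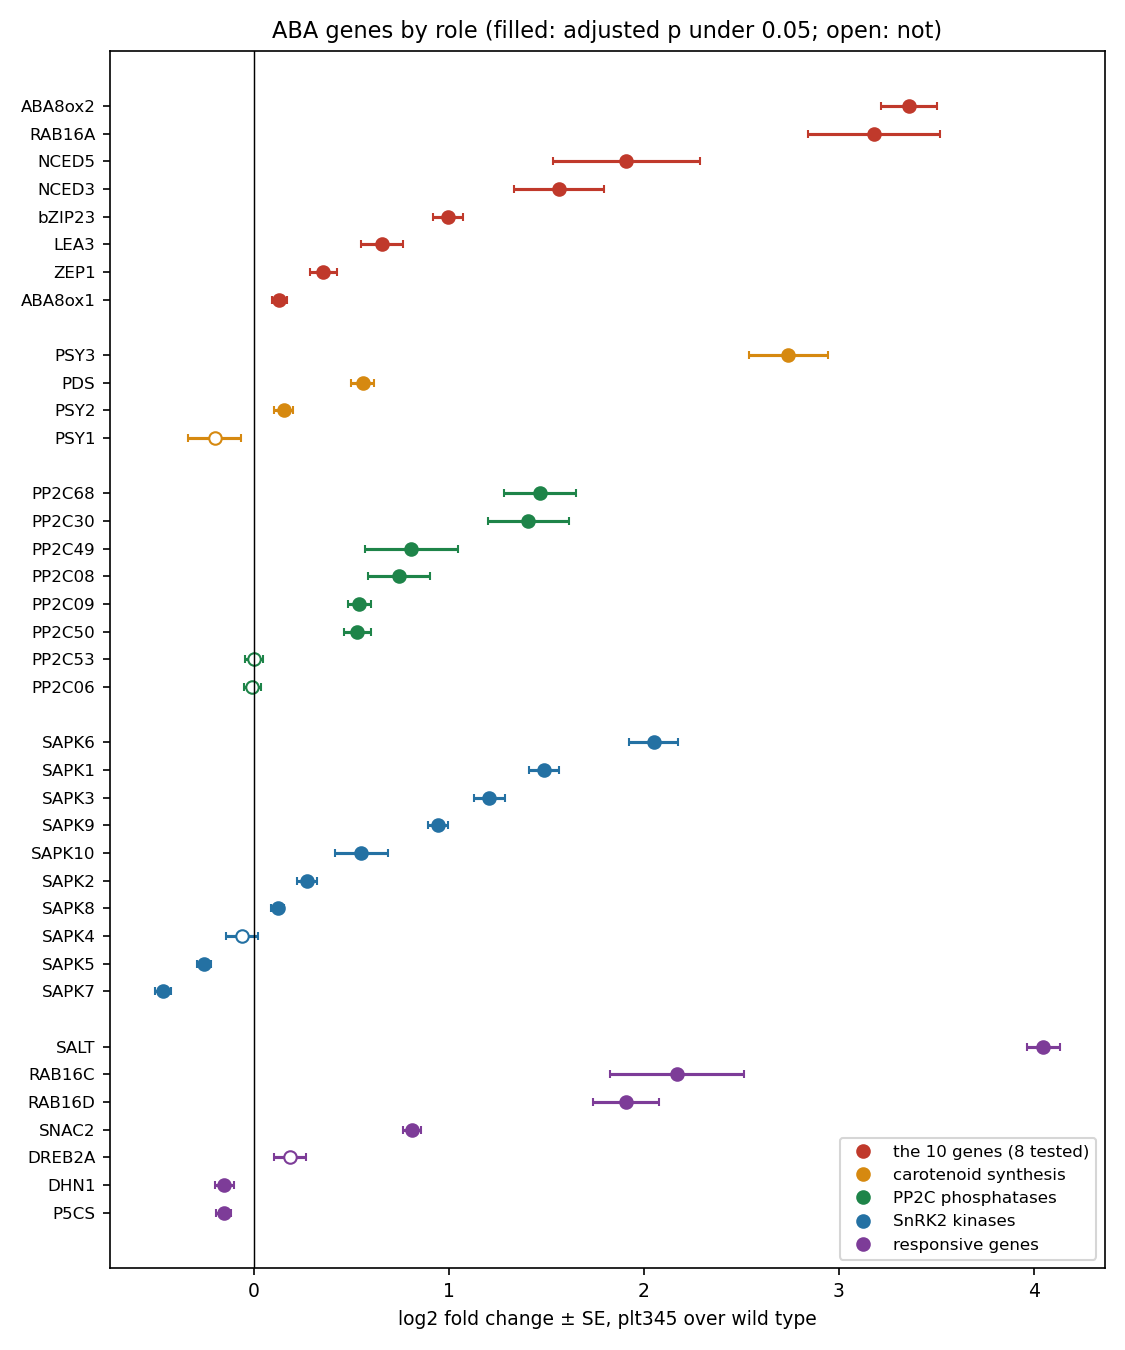
Log2 fold change, plt345 over wild type, with its SE, for the 8 tested ABA genes and for the tested genes of 4 further lists whose symbol was placed, grouped by role and coloured by group. Filled points passed the threshold and open points did not, and most points lie right of 0, with SAPK5, SAPK7, DHN1 and P5CS the filled points left of it.

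Marker genes of other tissues and cell states also differed between the genotypes. Their counts stand against 34.0% higher and 34.0% lower over all tested genes, and 29.7% and 25.7% with no filter. All 3 cellulose synthase genes listed as markers of xylem walls were higher, their summed level being 3873 to 3904 normalized counts in plt345 and 2247 to 2307 in wild type. Of 5 marker genes of dividing cells 4 were lower and 1 did not pass, with sums of 4948 to 5136 in plt345 and 6537 to 6779 in wild type. Of 7 loci listed as root markers, LOC_Os12g02870 was contradicted by the reference table and left out. Named after its value was seen, it was higher (log2 fold change 0.29, limma adjusted p = 0.00181). The 6 root markers kept, LSI1 and CASP1 among them, were present throughout. Their sums were 8961 to 9146 in plt345 and 5058 to 5227 in wild type, 4 of 6 being higher and 1 lower. LSI1, a silicon transporter gene, carried most of that difference. Without it the sums were 4585 to 4694 in plt345 and 3935 to 4084 in wild type. CASP1, a Casparian strip gene, fell to a mean of 1577 in plt345, against 2159 in wild type. The remaining root markers were named after their values were seen. QHB rose 4.6-fold, to a mean of 103.3 in plt345, against 22.45 in wild type. SHR2 rose 1.69-fold. LOC_Os04g55970, whose entered symbol was not found in the reference table, rose 1.72-fold. SHR1 did not pass (log2 fold change 0.12, limma adjusted p = 0.172). Seed markers matter here because LEA and dehydrin genes are also embryo genes. Of 5 seed loci listed, 1 was contradicted by the reference table and left out, and it was also absent from the data. The sums over the 4 seed genes kept were 31.7 to 48.05 in plt345 and 11.25 to 16.4 in wild type. RAG2, an albumin gene of the seed, carried that difference, and without it the sums were 4.81 to 16.7 in plt345 and 10.2 to 13.3 in wild type, which overlap. It alone of the 4 passed the filter, and only through its plt345 level (means of 31.2 in plt345 and 2.38 in wild type; log2 fold change 3.31, SE 0.37, limma adjusted p = 1.5e-08), so its call is a description. OLE18, an oleosin gene named after its values were seen, had 10, 2 and 0 reads in plt345 and 8, 7 and 9 in wild type. The other seed genes, likewise named afterwards, leaned the other way on few reads. GLUA1 had 5, 4 and 2 reads in plt345 and 1, 3 and 4 in wild type. LOC_Os04g46200, whose entered symbol was not found in the reference table, had 2, 0 and 3 in plt345 and 1, 0 and 0 in wild type. EM, an embryo LEA gene named after its values were seen, had 0, 2 and 1 reads in plt345 and 0 in each wild type library. LEA3-2, a LEA gene of the response list also named afterwards, had 5, 4 and 3 reads in plt345 and 1, 0 and 0 in wild type. Both were too low for the test. Sums over 4 green shoot genes were 10.8 to 19.2 in plt345 and 45.0 to 54.2 in wild type, and CAB1R, a chlorophyll-binding protein gene, carried that difference. It alone passed the filter, and only through its wild type level (means of 3.56 in plt345 and 43.2 in wild type). Without it the sums ran the other way, at 8.81 to 15.7 in plt345 and 5.11 to 8.19 in wild type, and with no filter 2 of the 4 genes were higher and 1 lower. What part these shifts have in the ABA genes' values was not tested.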

How the data were processed

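The authors deposited 1 table for 6 root tip RNA-seq libraries, 3 plt345 and 3 wild type. Its library columns hold a normalized signal, gene read counts divided by size factors, as its values show and as its DESeq2 columns name them per the file headers. The deposited table also gives a mean, the authors' log2 fold change with standard error, a Wald score, and p-values, of which the log2 fold change and adjusted p served as an alternative (1789 adjusted p-values are blank). Tools listed in the submitters' processing notes are DESeq2 1.38.3, featureCounts 2.0.0 and HISAT2. For genome build, strand setting and treatment of shared reads the status is: not given in the sources used here. Library preparation used rolling circle replication with paired-end sequencing on a BGISEQ-500, per the labels' protocols.

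In each library 100% of values were whole multiples of 1 read within 0.01 of a read, so reads were recovered. They summed to 20759896 to 21035771 in plt345 and 21013147 to 21309371 in wild type. Intervals and floors would cover counting error only. limma 3.58.1 was run on log2(value + 1) of genes with a mean of at least 10 (eBayes with trend, two-sided, no block, Benjamini-Hochberg) in R 4.3.3, the fit having been tried on simulated data. The pseudocount understates changes of low genes. The threshold called 15751 genes, 7886 higher and 7865 lower, and edgeR 4.0.16 on the recovered reads called 15944, with a coefficient of variation of 2.72% at which small changes pass. Alternatives were pseudocount, filter, scaling, edgeR, DESeq2 1.42.0, the authors' table, a replicate block and each library left out. Library pairs of 1 genotype had a chi-square per gene of 1.42 to 2.08, and pairs across genotypes 53.3 to 54.8. Every library was kept, though these values cannot tell separately grown plants from repeats of the same plants.

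The 10 genes and the other lists were chosen with earlier results of these data known. The rule names the 10 genes and, from each other list, every gene past the threshold and at least 2-fold changed, and otherwise up to 3 with the smallest adjusted p. The table gives locus identifiers only. Symbols were placed through RefSeq (ASM3414082v1), a pair being placed where RefSeq has that symbol, or a synonym, at most 1 Mb from the position that other pairs predict on that chromosome. Of 98 listed pairs 63 were placed, with a largest distance of 0.67 Mb, 31 were not found and 4 were contradicted. Among the 10 genes 8 were placed, and NCED4 and NCED5 rest on nomenclature, as do the loci of PLT3 to PLT5. RAB16A was looked up as RAB21, EM as Osem, and MCSU3 and DHN1 were entered as ABA3 and RAB25. This makes a pair plausible but does not show that the identifiers are equal. No sequence is shown, as none was used here.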

Additional observations from a re-analysis of the deposited data

How the results depend on the processing

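The calls of the 8 tested ABA genes held in every alternative in which the gene was tested, 16 at most, always as higher. Log2 fold changes ranged from 0.10 to 0.22 for ABA8ox1, 3.17 to 3.45 for ABA8ox2, 1.37 to 1.69 for NCED3, 1.32 to 2.15 for NCED5, 0.33 to 0.445 for ZEP1, 0.94 to 1.101 for bZIP23, 2.505 to 3.55 for RAB16A and 0.58 to 0.75 for LEA3. The highest adjusted p of any was 0.041, for ABA8ox1 without wild type replicate 2. NCED5 left the test without plt345 replicate 3, since its mean fell below 10, so leaving out libraries gave 7 to 8 genes higher and 0 lower. With a minimum mean of 50 there were 5 higher, since NCED3, NCED5 and RAB16A were then not tested, and 2239 genes at least 2-fold changed, against 3879. With placed symbols alone the counts past the threshold were 1 other synthesis gene, 3 carotenoid genes, 1 receptor gene and 0 other transcription factors, against 2, 8, 5 and 4, since fewer genes entered. With contradicted pairs kept, a setting added after seeing the data, 3 other synthesis genes and 6 receptor genes passed, the added ones being lower. PP2C06, PP2C53 and SAPK4, none of which passed, changed sign. PP2C06 was 0.079 with library totals, 0.00065 in DESeq2 and 0.00096 with the median of all genes subtracted, a setting chosen after seeing the data, and ranged from -0.040 to 0.016 over left-out libraries. PP2C53 was -0.0062 with TMM and ranged from -0.021 to 0.039 over left-out libraries. SAPK4 was 0.026 with library totals and ranged from -0.177 to 0.055 over left-out libraries.

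Library totals moved the median log2 fold change of all genes to 0.08. Leaving out a library gave 14698 to 15346 genes past the threshold. With a replicate block 15913 passed, and 8 of the 10 ABA genes were higher. Same-numbered libraries did not deviate together (correlations of -0.001 to 0.024), so the numbers were not taken as pairs. For NCED4 and ABA8ox3 depth is the limit, with 4 and 5 reads over all libraries. The marker sums without LSI1, CAB1R or RAG2 were added after seeing the data.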

Other observations

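The genes beside the 10 ABA genes differed in direction from place to place. Of the 5 listed loci on each side of ABA8ox2 by identifier, 8 were tested, and 0 were higher and 5 lower at adjusted p under 0.05 in limma. TRAB1, an ABA-responsive bZIP factor gene, is among these neighbours, with 2 protein-coding genes between it and ABA8ox2 in the reference annotation. Around NCED3, 8 neighbours were tested, 1 higher and 2 lower. Around RAB16A, 5 were tested, and 3 were higher, among them RAB16C and RAB16D, and 1 lower. Around LEA3 5 of 7 tested neighbours were higher and 2 lower, around bZIP23 4 of 7 and 1, around ABA8ox1 4 of 8 and 2, and around ABA8ox3 4 of 6 and 0. Around ZEP1 3 of 8 were higher and 3 lower, around NCED5 3 of 7 and 4, and around NCED4 3 of 8 and 2. Over all tested genes 34.0% were higher and 34.0% lower.

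LEA3 had 32.4, 35.3 and 33.5 reads per 100 reads of bZIP23 in the plt345 libraries, against 42.3, 35.3 and 51.6 in the wild type libraries. These ratios overlapped, with an exact two-sided permutation p of 0.2. RAB16A had 62.2, 63.8 and 44.7 reads per 100 reads of RAB16D in plt345, against 37.5, 7.41 and 27.3 in wild type, with the smallest exact p possible, 0.1.

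The symbols entered for LOC_Os01g64000 and LOC_Os02g47510 were not found in the reference table. Both loci are on the lists and were named after their values were seen. LOC_Os01g64000 was entered as an ABA transcription factor gene, and LOC_Os02g47510 as an NCED gene of ABA synthesis. LOC_Os01g64000 had 82, 76 and 75 reads in the plt345 libraries, against 2, 0 and 1 in the wild type libraries, a read ratio of 74.1 with a 95% exact binomial interval of 25 to 362 that covers counting error only. LOC_Os02g47510 had 17, 22 and 16 reads in plt345, against 0, 0 and 1 in wild type, 52.4 as a ratio of reads (9.03 to 2110, the same kind of interval).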
